A study of Mus musculus with 14 samples.

Results

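Gene expression was compared between the hippocampal subregions CA1 and CA3 in tissue that had been homogenised directly. The comparison used every control library of the 2 subregions, which is 5 of the 14 libraries of the series: CA1 replicates 1, 2 and 3, and CA3 replicates 1 and 4. The series as a whole compared directly homogenised with enzymatically dissociated tissue of CA1, CA3 and the dentate gyrus (DG) in mice of the strain C57BL/6. No dissociated library was used here, and the labels name no genetic change and no agent given to the animal for any of the 5 libraries. RNA of both groups was isolated with the same Promega Maxwell 16 LEV kit and sequenced on the Illumina HiSeq platform. The authors' sample table gives 1 mouse for all libraries, so p-values cover the variation between pieces of tissue from a single animal and nothing beyond it. The age of the mouse is not given in the sources used here. Of the 22485 gene symbols in the deposited table, 11851 had enough counts to be tested.

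CA1 and CA3 are fields of the hippocampus whose principal cells are excitatory pyramidal neurons. CA3 pyramidal cells receive mossy fibre input from dentate granule cells, contact one another through recurrent collaterals and send the Schaffer collaterals to CA1, and CA1 pyramidal cells form the main output of the hippocampus proper. A small field, CA2, lies between them, and both fields also hold inhibitory interneurons, oligodendrocytes that make myelin, astrocytes, microglia and blood vessels.

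The 2 libraries labelled CA3 did not resemble each other as the 3 CA1 libraries did. Total estimated counts ranged from 1974845 to 6646655, the deepest library being CA1 replicate 2, and 61.06% to 68.56% of genes had at least 1 count. Levels are given as CPM, counts scaled to a common library size. A gene at 0 counts could hold up to 3, or 0.451 to 1.519 CPM depending on the library, for counting error only. Among 7506 genes averaging 20 CPM or more, 92 to 227 differed by over 2-fold between any pair of CA1 libraries. Between the 2 CA3 libraries 755 genes did, and CA3 replicate 1 differed from the CA1 libraries in fewer genes (277 to 463) than from CA3 replicate 4. CA3 replicate 4 differed from the CA1 libraries in 604 to 1215 genes.

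Many markers of the pyramidal fields, though not all of the CA1 list, were split in the same way. Fibcd1, a CA1 marker, was at 511, 547 and 596 CPM in CA1 replicates 1, 2 and 3, at 836 CPM in the library labelled CA3 replicate 1 and at 267 CPM in CA3 replicate 4. The transcription factor gene Pou3f1, another CA1 marker, was at 308, 276 and 376 CPM in CA1, and at 297 and 106 CPM in CA3 replicates 1 and 4. For both genes the library labelled CA3 replicate 1 was at or above the lowest CA1 library. The same held for Mpped1, Spink8, Sstr4 and Ubash3b of the CA1 list. Other members, among them Wfs1, Ndst4, Nov, Lefty1, Man1a and Gpr161, were lower in that library than in each CA1 library. Bok, a CA3 marker of the BCL2 family, was at 8.26, 7.84 and 9.995 CPM in CA1, and at 19.1 and 131 CPM in CA3 replicates 1 and 4. Cpne4, which encodes a calcium-dependent membrane-binding copine, was at 2.75, 4.82 and 6.36 CPM in CA1, and at 13.2 and 136 CPM in CA3. In these 2 genes the library labelled CA3 replicate 1 lay above all CA1 libraries, but much nearer to them than to CA3 replicate 4. The CA2 marker Amigo2 was at 1.38, 3.47 and 2.27 CPM in CA1, and at 6.37 and 90.2 CPM in CA3 replicates 1 and 4. Necab2, a calcium-binding protein gene and also a CA2 marker, was at 21.6, 29.2 and 12.3 CPM in CA1, and at 26.0 and 229 CPM in CA3.

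Summed over each marker list, CA1 markers came to 3743, 3493 and 3878 CPM in CA1, 2866 CPM in the library labelled CA3 replicate 1 and 1314 CPM in CA3 replicate 4. The CA3 markers summed to 235, 250 and 255 CPM in CA1, 432 CPM in the library labelled CA3 replicate 1 and 1635 CPM in CA3 replicate 4. For CA2 markers the sums were 181, 251 and 220 CPM in CA1, and 193 and 872 CPM in CA3. The library labelled CA3 replicate 1 was therefore inside the CA1 range for CA2 markers and closer to CA1 than to CA3 replicate 4 for CA1 and CA3 markers. Its label was kept, and counts of calls, or medians for these marker lists, are given with and without it. The values of a called gene are given without it, or without CA3 replicate 4, where the fold moved by over 1.5 times. With 1 library left in CA3, that library is assumed to vary as the CA1 libraries do. The CA1, CA2 and CA3 marker lists set CA3 replicate 1 apart, so larger differences in these lists without it follow from that. They carry no separate weight.

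**Figure D1:**
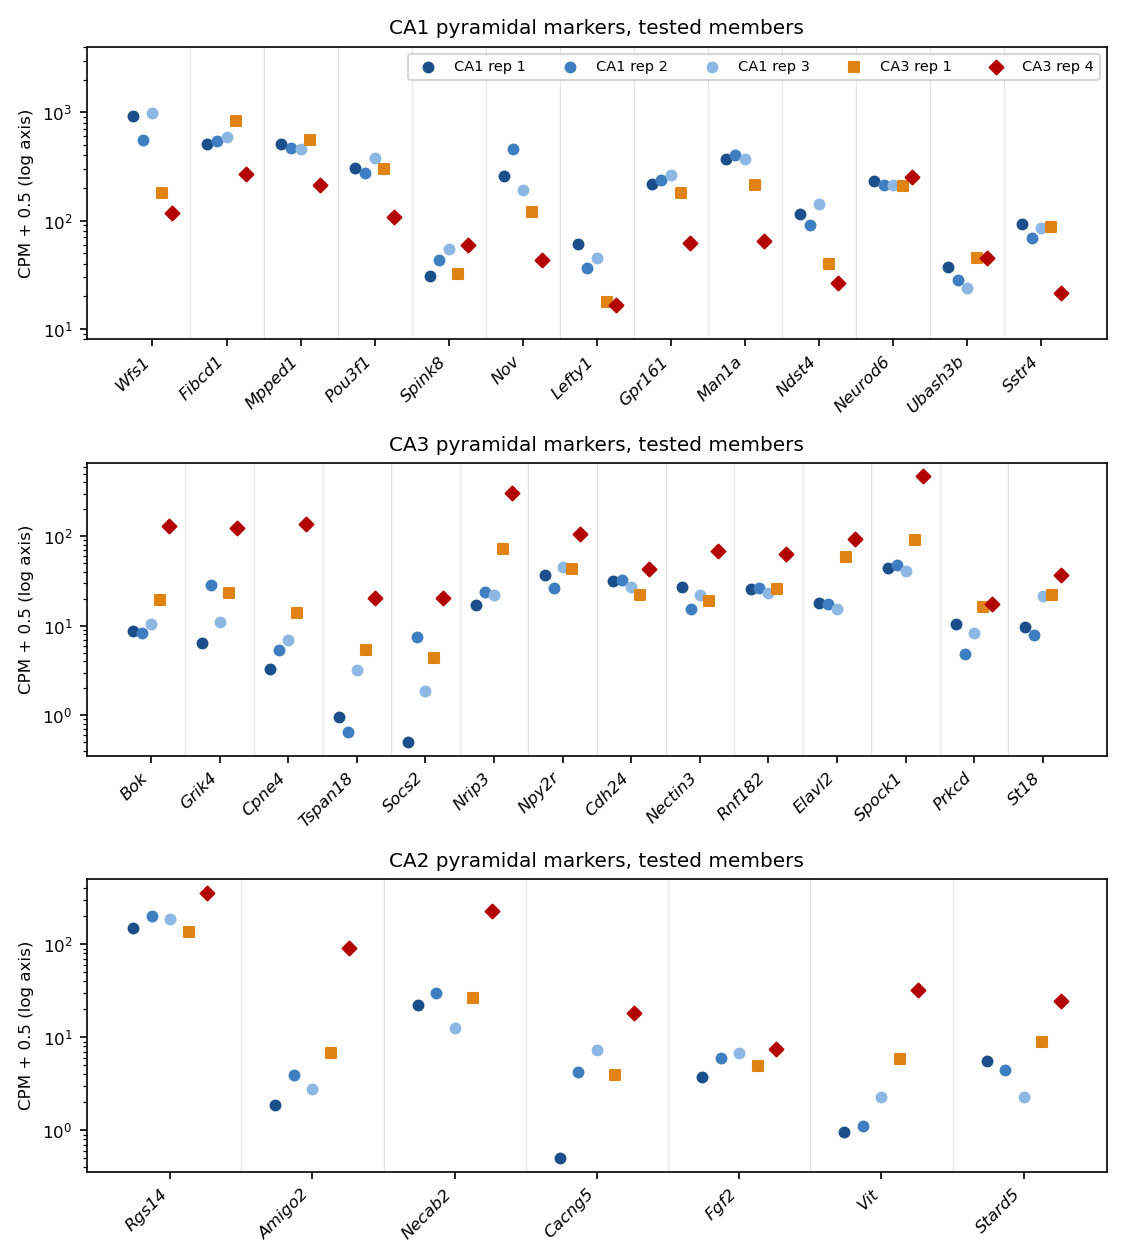
Levels of tested CA1, CA3 and CA2 markers (all but 1 of the CA1 list) in the 5 libraries, in CPM + 0.5 on a log axis, with 1 point per library (circles, CA1 replicates 1, 2 and 3; squares, CA3 replicate 1; diamonds, CA3 replicate 4). CA3 replicate 4 stands apart for Bok, Cpne4, Spock1, Amigo2 and Necab2, while the square lies among or near the circles for these genes and for Fibcd1, Mpped1 and Pou3f1, and near the diamond for Wfs1.

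Of the 11851 genes tested, 41 (0.346%) differed between CA1 and CA3 at an adjusted p under 0.05 (edgeR quasi-likelihood test, Benjamini-Hochberg adjustment). CA1 was higher in 9 of them (0.0759% of genes tested) and lower in 32 (0.27%). All 41 had no overlap between the 3 CA1 and the 2 CA3 libraries, as had 1837 tested genes with both CA3 libraries below CA1 and 1707 with both above. At an unadjusted p under 0.05 there were 1450 of the 11851 genes, the share beside which each list's count at that level stands. The median log2 fold change of CA1 over CA3 across all tested genes was -0.02. When the library labelled CA3 replicate 1 was left out, 1024 of 12342 genes (8.3%) passed in edgeR, 696 higher (5.64%) and 328 lower (2.66%) in CA1. Without CA3 replicate 4, 70 of 12335 genes (0.567%) passed, 19 higher (0.154%) and 51 lower (0.413%). All 41 genes passed without CA3 replicate 1, and 35 of them passed without CA3 replicate 4, the other 6 being Smoc2, Fam19a2, Elfn1, Tagln3, Camk2n2 and Qdpr. Leaving out CA1 replicate 1, 2 or 3 left 0, 6 and 6 genes in edgeR, with 1016, 1163 and 828 genes at an unadjusted p under 0.05. All 41 genes kept their direction in each of these fits, which could hardly be otherwise because the groups did not overlap for any of them. DESeq2 on the 5 libraries called 238 of 13146 genes (1.81%), 126 higher (0.958%) and 112 lower (0.852%) in CA1.

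The 2 CA3 libraries departed from the CA1 mean mostly in different genes. Among the 7506 genes of at least 20 CPM, 35 were at least 2-fold below the CA1 mean in both CA3 libraries and 83 were at least 2-fold above it in both. In CA3 replicate 4 alone, 472 genes were below and 199 above by that margin. In the library labelled CA3 replicate 1 alone, 61 were below and 75 above, and 5 genes lay on opposite sides in the 2 libraries.

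**Figure D2:**
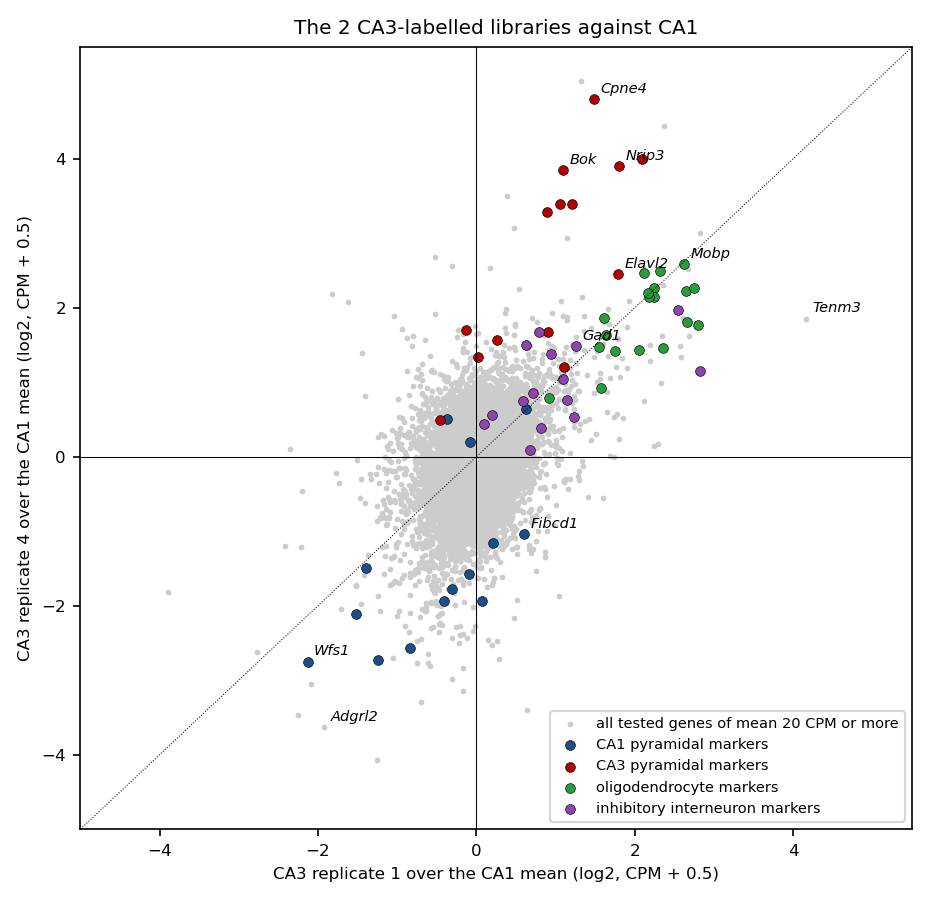
Each tested gene of at least 20 CPM as 1 point, by its log2 ratio to the CA1 mean in CA3 replicate 1 (horizontal) and in CA3 replicate 4 (vertical), with CPM + 0.5; members of 4 marker lists are coloured at any level and the dotted line marks equal ratios. Oligodendrocyte markers lie near the line at the upper right, while most CA3 markers lie high on the vertical axis only and most CA1 markers low on it.

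The 9 genes higher in CA1 included proteins of the membrane, the matrix and heparan sulfate chains. Wfs1, which encodes wolframin of the endoplasmic reticulum and is widely used to mark CA1, lies on chromosome 5 (36966104 to 36989205, minus strand, GRCm38). It was at 914, 550 and 974 CPM in CA1, and at 180 and 117 CPM in CA3 replicates 1 and 4. Every CA1 library was above both CA3 libraries, and the log2 fold change was 2.46 ± 0.31 (SE; edgeR adjusted p = 0.0143). For Wfs1, unlike Fibcd1 and Pou3f1, the library labelled CA3 replicate 1 lay with CA3 replicate 4. Ndst4, an enzyme that modifies heparan sulfate and the other called CA1 marker, was at 113, 89.98 and 143 CPM in CA1, and at 39.2 and 25.8 CPM in CA3 (log2 fold change 1.83 ± 0.29, edgeR adjusted p = 0.0349).

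Prss12, the gene of the synaptic serine protease neurotrypsin, lies on chromosome 3 (123446913 to 123506597, plus strand). It was at 40.4, 35.6 and 34.5 CPM in CA1, and at 7.35 and 2.87 CPM in CA3 replicates 1 and 4. With all 5 libraries this was the highest log2 fold change among the 9 genes, 2.87 ± 0.42 (edgeR adjusted p = 0.0285). For Prss12 it was 3.67 without CA3 replicate 1 and 2.32 without CA3 replicate 4. Fras1, an extracellular matrix protein of basement membranes, was at 89.95, 66.0 and 53.6 CPM in CA1, and at 15.7 and 7.79 CPM in CA3. Adgrl2 encodes the adhesion receptor latrophilin-2 and lies on chromosome 3 (148815583 to 148990555, minus strand). It was at 240, 179 and 212 CPM in CA1, and at 54.9 and 16.4 CPM in CA3 (log2 fold change 2.58 ± 0.41, edgeR adjusted p = 0.036). For Adgrl2 the log2 fold change was 3.68 without CA3 replicate 1 and 1.94 without CA3 replicate 4. In these 3 genes both CA3 libraries were low and CA3 replicate 4 was the lowest.

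Gpc4, a glypican that carries heparan sulfate at the cell surface, was at 56.0, 51.5 and 44.98 CPM in CA1, and at 15.2 and 11.9 CPM in CA3. Ptn, the heparin-binding growth factor pleiotrophin, was at 217, 211 and 193 CPM in CA1, and at 93.0 and 89.8 CPM in CA3. Ano3, a membrane protein of the anoctamin family, was at 162, 171 and 215 CPM in CA1, and at 70.0 and 72.2 CPM in CA3. For Ptn and Ano3 the 2 CA3 libraries were nearly equal, with log2 fold changes of 1.18 ± 0.19 and 1.36 ± 0.21. Ngef, the gene of ephexin, an exchange factor that acts downstream of Eph receptors, was at 181, 159 and 162 CPM in CA1, and at 78.4 and 50.0 CPM in CA3.

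Of the 16 genes on the CA1 marker list 14 were tested and 2 passed as higher in CA1, beside 0.0759% of all tested genes. Their median log2 fold change was 0.78, against -0.02 for all tested genes. The median was 1.70 without the library labelled CA3 replicate 1 and 0.37 without CA3 replicate 4. A higher median without CA3 replicate 1 was bound to follow, because these markers had set that library apart. Man1a, a mannosidase of the Golgi, was at 373, 406 and 370 CPM in CA1, and at 214 and 64.0 CPM in CA3. Gpr161, a receptor of the primary cilium, was at 215, 236 and 263 CPM in CA1, and at 178 and 61.5 CPM in CA3. Mpped1 was at 513, 465 and 453 CPM in CA1, and at 549 and 214 CPM in CA3 replicates 1 and 4. Of these 3 genes Mpped1 alone overlapped between the groups, and none of them passed in edgeR with all 5 libraries. In CA3 replicate 4 all 3 were below every CA1 library.

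Among genes lower in CA1, 2 came from the 14 tested CA3 markers of a list of 18, beside 0.27% of all tested genes. All 14 had a negative log2 fold change of CA1 over CA3, with a median of -2.01. Nrip3, which encodes a nuclear receptor-interacting protein, lies on chromosome 7 (109758055 to 109782025, minus strand). It was at 16.5, 23.1 and 21.4 CPM in CA1, and at 71.5 and 307 CPM in CA3 replicates 1 and 4. Both CA3 libraries were above all CA1 libraries, by a log2 fold change of -3.20 ± 0.48 for CA1 over CA3 (edgeR adjusted p = 0.033). For Nrip3 this was -3.88 without CA3 replicate 1 and -1.79 without CA3 replicate 4, and the gene passed in both fits. Elavl2, a neuronal RNA-binding protein of the Hu family, was at 17.4, 17.2 and 15.0 CPM in CA1, and at 58.3 and 92.3 CPM in CA3 (log2 fold change -2.18 ± 0.28, edgeR adjusted p = 0.0143).

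Spock1, a secreted proteoglycan of the testican family, was at 43.6, 47.0 and 40.9 CPM in CA1, and at 91.1 and 465 CPM in CA3 replicates 1 and 4. It did not pass with both CA3 libraries (edgeR adjusted p = 0.0646), as Bok (0.0812) and Cpne4 (0.0684) did not. The median of the 14 CA3 markers was -2.50 without the library labelled CA3 replicate 1 and -0.93 without CA3 replicate 4. Spock1 was at -3.39 on the log2 scale without CA3 replicate 1. Of 13 CA2 markers 7 were tested in edgeR and none passed with all 5 libraries, while 4 were at an unadjusted p under 0.05. DESeq2 called 2 of the 13. The median of the 7 tested in edgeR was -2.16. With CA3 replicate 4 as the only CA3 library, 11 CA2 markers could be tested, with a median of -3.36. Without CA3 replicate 4, 7 were tested and the median was -0.26. Rgs14, a CA2 signalling protein, was at 149, 200 and 186 CPM in CA1, and at 135 and 359 CPM in CA3, so that the 2 CA3 libraries lay on opposite sides of CA1.

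Among called genes the most negative log2 fold changes, those of Smoc2 and Tenm3, were of genes outside the CA3 list. Smoc2, a secreted calcium-binding matrix protein, lies on chromosome 17 (14279506 to 14404790, plus strand). It was at 0.918, 0.603 and 0.909 CPM in CA1, each near the level that a count of 0 allows, and at 12.2 and 30.8 CPM in CA3 replicates 1 and 4 (log2 fold change -4.77 ± 0.65, edgeR adjusted p = 0.0229). Without CA3 replicate 4 the log2 fold change of Smoc2 was -3.92 and it did not pass (edgeR adjusted p = 0.196), and without CA3 replicate 1 it was -5.28. Tenm3, the gene of teneurin-3, an adhesion protein that matches connected neurons and binds latrophilins, lies on chromosome 8 (48227682 to 48843951, minus strand). It was at 30.3, 24.9 and 62.2 CPM in CA1, at 656 CPM in the library labelled CA3 replicate 1 and at 132 CPM in CA3 replicate 4. Here the library labelled CA3 replicate 1 was the high one, and the log2 fold change was -3.36 ± 0.58 (edgeR adjusted p = 0.0467). Leaving that library out gave -1.79 and leaving out CA3 replicate 4 gave -4.12, and Tenm3 passed in both fits.

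Genes of myelin and mature oligodendrocytes were the listed group with the most calls among the 41, and their summed level was similar in the 2 CA3 libraries. Of 20 oligodendrocyte markers 19 were tested, 10 were lower in CA1 and none was higher, beside 0.27% of all tested genes called lower. Their median log2 fold change was -2.07, and all 19 were negative and at an unadjusted p under 0.05. Summed over the list, the level was 901, 800 and 972 CPM in CA1 and 3975 and 3777 CPM in CA3 replicates 1 and 4. Without the library labelled CA3 replicate 1, 11 passed with a median of -1.82, and without CA3 replicate 4, 12 of 20 tested passed with a median of -2.23. In bulk tissue, fewer cells of a type and less RNA per cell cannot be told apart.

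Mbp, which encodes myelin basic protein, had the smallest p of all genes. It lies on chromosome 18 (82475146 to 82585637, plus strand) and was at 267, 254 and 304 CPM in CA1, and at 1303 and 1325 CPM in CA3. Every CA3 library was more than 4 times as high as every CA1 library, and the log2 fold change was -2.26 ± 0.18 (edgeR adjusted p = 0.00164). Mobp, another structural protein of myelin, was at 95.0, 65.0 and 112 CPM in CA1, and at 548 and 532 CPM in CA3 (log2 fold change -2.58 ± 0.24, edgeR adjusted p = 0.00225). Mal, a membrane proteolipid of myelin, was at 17.9, 21.4 and 20.9 CPM in CA1, and at 138 and 98.4 CPM in CA3 (log2 fold change -2.54 ± 0.24, edgeR adjusted p = 0.00252). Mbp, Mobp and Mal passed in 4 of the 5 fits that left out 1 library, all but the fit without CA1 replicate 1.

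A further 6 called markers were Cldn11, Trf, Cnp, Myrf, Ermn and Mag, with edgeR adjusted p-values from 0.00572 to 0.0369. Among them Ermn, a cytoskeletal protein of myelin sheaths, differed most between the CA3 libraries, at 61.7 and 29.9 CPM in replicates 1 and 4, beside 6.88, 9.04 and 9.54 CPM in CA1. The log2 fold change of Ermn was -2.41, or -1.80 without CA3 replicate 1 and -2.84 without CA3 replicate 4. Cldn11, the claudin of myelin tight junctions, was at 13.8, 13.1 and 18.2 CPM in CA1, and at 96.0 and 71.4 CPM in CA3. Mag, an adhesion protein between myelin and axon, was at 15.2, 16.4 and 41.3 CPM in CA1, and at 111 and 125 CPM in CA3. Its log2 fold change was -2.32, or -2.91 without CA1 replicate 3. Myrf, a transcription factor needed for myelin genes, was at 17.0, 25.8 and 21.4 CPM in CA1, and at 65.1 and 77.5 CPM in CA3. In each of these genes the highest CA1 library was below the lower CA3 library. Mog, a protein of the outer myelin surface, and Sox10, a transcription factor of the oligodendrocyte lineage, did not pass (edgeR adjusted p = 0.116 and 0.236). Mog was at 8.26, 6.33 and 9.54 CPM in CA1, and at 27.9 and 22.2 CPM in CA3.

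Further called genes that are known in oligodendrocytes but were not on the list, named after their values were seen, included Plekhb1, Bcas1, Plxnb3 and Cryab. Plxnb3 encodes a semaphorin receptor and was at 6.88, 10.1 and 6.82 CPM in CA1, and at 42.1 and 40.6 CPM in CA3 (log2 fold change -2.33 ± 0.32, edgeR adjusted p = 0.0246). Bcas1, a protein of early myelinating cells, was at 29.4, 18.7 and 22.3 CPM in CA1, and at 89.1 and 100.1 CPM in CA3. Cryab, a small heat-shock chaperone, was at 15.2, 14.02 and 12.3 CPM in CA1, and at 52.9 and 47.2 CPM in CA3. None of 8 oligodendrocyte precursor markers passed in edgeR (1 at an unadjusted p under 0.05, none in DESeq2), and their median was -0.45. It was -0.21 without CA3 replicate 1 and -0.80 without CA3 replicate 4, again with no call. Their summed level was 134, 112 and 93.6 CPM in CA1 and 179 and 134 CPM in CA3, and CA3 replicate 4 was level with CA1 replicate 1.

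Sequences upstream of 3 called myelin genes are shown because these genes moved together; the data hold no measurement of binding there. RefSeq promoter windows (GRCm38.p6) were found for 6 of the 10 called markers. The 250 bases before the start were searched for ACAAAG, the core recognised by SOX factors, on both strands, and the match on the minus strand reads CTTTGT. At least 1 match was present in 5408 of 32851 windows (16.5%), and in windows of 3 of the 6 genes (Mobp, Cnp and Mag, not Cldn11, Ermn or Mal). Mag had several windows and counts if any holds a match, so this count of genes cannot be compared with the share of windows. Mobp had 6 matches, and no other of the 32851 windows had as many. The 6 lie in a T-rich stretch of repeated similar units, and whether they are separate sites was not tested. Cnp had 1 match and Mal had none. In the printed stretches, which end before the annotated gene start, capitals mark the matches:
Mobp, chr9:120149492-120149706, plus strand: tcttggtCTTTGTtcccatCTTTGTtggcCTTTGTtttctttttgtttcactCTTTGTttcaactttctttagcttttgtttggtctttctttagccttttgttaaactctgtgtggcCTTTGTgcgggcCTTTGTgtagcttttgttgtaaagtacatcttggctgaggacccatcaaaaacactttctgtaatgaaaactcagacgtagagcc
Cnp, chr11:100574689-100574903, plus strand: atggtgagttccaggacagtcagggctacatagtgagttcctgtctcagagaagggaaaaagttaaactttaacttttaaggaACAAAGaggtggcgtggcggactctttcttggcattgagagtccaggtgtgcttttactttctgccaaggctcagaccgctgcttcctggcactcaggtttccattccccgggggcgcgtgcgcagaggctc
Mal, chr2:127656696-127656945, minus strand: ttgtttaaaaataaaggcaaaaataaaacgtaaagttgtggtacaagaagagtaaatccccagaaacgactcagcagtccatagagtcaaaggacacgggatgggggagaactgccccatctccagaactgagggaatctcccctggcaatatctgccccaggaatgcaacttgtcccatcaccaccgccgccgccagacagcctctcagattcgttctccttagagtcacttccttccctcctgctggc

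The transcript estimates were compared for a myelin gene and a CA1 marker. Mobp was at 89.4, 56.0 and 104 TPM in CA1, on a scale that corrects for transcript length, and at 530 and 429 TPM in CA3 replicates 1 and 4. Both CA3 libraries were above all CA1 libraries. Mobp-003 held 70.5%, 83.1% and 70.6% of the Mobp TPM in CA1, and 84.0% and 86.4% in CA3. Wfs1-001 held 67.1%, 77.2% and 81.5% of the Wfs1 TPM in CA1, 79.4% in the library labelled CA3 replicate 1 and 46.5% in CA3 replicate 4. These shares were not tested, and kallisto divides reads among isoforms of shared sequence.

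**Figure D3:**
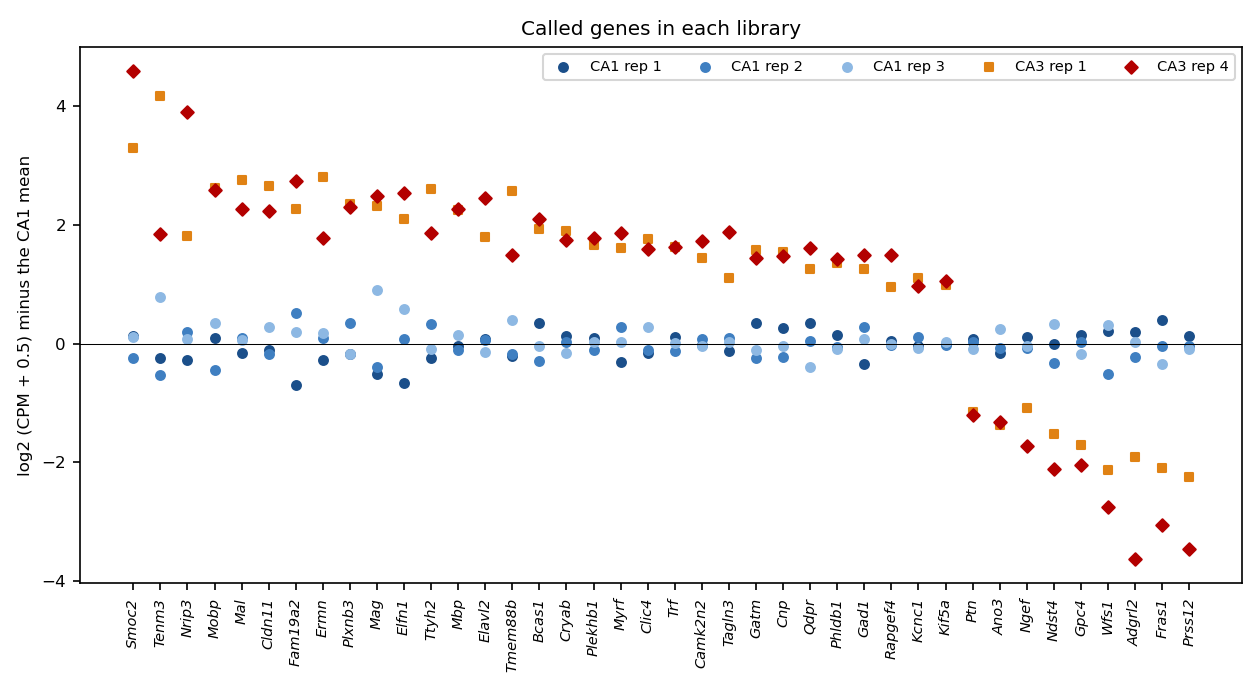
The called genes other than 1 that is not shown, ordered by fold change, each with 5 points: log2 (CPM + 0.5) in a library minus the mean of the 3 CA1 libraries (circles, CA1; squares, CA3 replicate 1; diamonds, CA3 replicate 4). Squares and diamonds lie close together for Mbp, Trf, Kcnc1, Ptn and Ano3, and apart for Tenm3, Nrip3 and Adgrl2.

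Markers of inhibitory interneurons summed to a higher level in both CA3 libraries than in each CA1 library. Of 16 markers 15 were tested and 1 passed, Gad1, beside 0.27% of all tested genes. All 15 were negative (Vip by only -0.01), with a median of -0.96, and 10 were at an unadjusted p under 0.05. Gad1, which encodes an enzyme that makes the transmitter GABA, lies on chromosome 2 (70553072 to 70602014, plus strand). It was at 107, 166 and 144 CPM in CA1, and at 328 and 384 CPM in CA3 (log2 fold change -1.35 ± 0.22, edgeR adjusted p = 0.036). Slc32a1, the vesicular transporter for GABA, was at 46.4, 57.1 and 41.3 CPM in CA1, and at 92.6 and 125 CPM in CA3, without passing (edgeR adjusted p = 0.0893). Sst, the peptide somatostatin of a dendrite-targeting class, was at 15.2, 72.6 and 71.8 CPM in CA1, and at 254 and 170 CPM in CA3. The groups did not overlap for these 3 genes, and Sst varied more within CA1 than Gad1 and Slc32a1 did. They did overlap for the peptide gene Vip, at 4.13, 18.2 and 11.4 CPM in CA1 and 10.3 and 13.1 CPM in CA3, and for the transcription factor gene Lhx6. Summed over the list, the level was 833, 999 and 871 CPM in CA1 and 1802 and 1796 CPM in CA3. Leaving out CA3 replicate 1, 6 of 15 passed, and without CA3 replicate 4, 3 did.

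Elfn1 and Kcnc1, both known in interneurons although on no interneuron list here, also passed. Elfn1, a postsynaptic protein of interneurons, was at 5.05, 8.74 and 12.7 CPM in CA1, and at 37.2 and 50.4 CPM in CA3 (log2 fold change -2.31 ± 0.38, edgeR adjusted p = 0.0369). Kcnc1, a potassium channel of fast-spiking neurons, was at 113, 125 and 110.4 CPM in CA1, and at 251 and 228 CPM in CA3 (log2 fold change -1.04 ± 0.18, edgeR adjusted p = 0.0472).

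Several called genes lower in CA1 are general neuronal genes. Kif5a, a kinesin of axonal transport, was at 979, 974 and 1010 CPM in CA1, and at 1950 and 2062 CPM in CA3 (log2 fold change -1.02 ± 0.16, edgeR adjusted p = 0.036). The 3 CA1 libraries lay close together for Kif5a, and both CA3 libraries were far above them. Rapgef4, a cyclic AMP sensor that activates Rap, was at 190, 182 and 183 CPM in CA1, and at 358 and 520 CPM in CA3. Camk2n2, an inhibitor of CaM kinase II, was at 13.8, 14.9 and 13.6 CPM in CA1, and at 39.2 and 48.0 CPM in CA3. Fam19a2, a secreted chemokine-like protein, was at 3.67, 9.19 and 7.27 CPM in CA1, and at 32.3 and 44.7 CPM in CA3. The remaining called genes lower in CA1 were Ttyh2, Phldb1, Clic4, Tmem88b, Gatm, Tagln3 and Qdpr, which were not sorted by cell type. Their log2 fold changes lay between -2.28 (Ttyh2) and -1.40 (Phldb1). That of Tmem88b was -2.15, or -1.51 without CA3 replicate 1 and -2.60 without CA3 replicate 4.

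Receptor and channel genes held few calls with all 5 libraries and more without the library labelled CA3 replicate 1, as tested genes did in general. List counts from that fit, here and below, stand beside the all-gene shares given above for it. A gain particular to a list was not tested. None of 6 tested NMDA receptor subunits passed with all 5 libraries in edgeR, with 4 at an unadjusted p under 0.05 and none called by DESeq2. Grin2b was at 2467, 1529 and 2198 CPM in CA1, and at 1500 and 422 CPM in CA3 replicates 1 and 4. Grin2a was at 1449, 1028 and 1354 CPM in CA1, and at 919 and 293 CPM in CA3. The library labelled CA3 replicate 1 lay just below the lowest CA1 library for both, and CA3 replicate 4 far below. Without CA3 replicate 1 both passed as higher in CA1, with log2 fold changes of 2.30 and 2.13 (edgeR adjusted p 0.000548 and 0.000491). Of 16 AMPA receptor genes none passed with all libraries (5 at an unadjusted p under 0.05, none in DESeq2) and 6 passed as higher without CA3 replicate 1. Gria1 was at 1918, 1674 and 2054 CPM in CA1, and at 1885 and 1145 CPM in CA3. All 14 tested GABA receptor subunits had a positive log2 fold change with a median of 0.44, yet none passed in edgeR (6 at an unadjusted p under 0.05, 3 in DESeq2), and 5 passed without CA3 replicate 1.

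Among 26 tested sodium, calcium and HCN channel genes none passed in edgeR (7 at an unadjusted p under 0.05, 3 in DESeq2), and 10 passed as higher in CA1 without CA3 replicate 1. Cacna1e, the R-type calcium channel, was at 1403, 1068 and 1056 CPM in CA1, and at 580 and 265 CPM in CA3. Both CA3 libraries were below CA1 for Cacna1e, with an edgeR adjusted p of 0.0976. Of 37 voltage-gated potassium channel genes 1 passed, Kcnc1, and without CA3 replicate 1 it was 8 higher and 2 lower of 39. Kcnh7 was at 414, 206 and 392 CPM in CA1, and at 197 and 32.4 CPM in CA3 replicates 1 and 4. The kainate receptor gene Grik4, also on the CA3 list, was at 5.97, 28.2 and 10.5 CPM in CA1, and at 23.0 and 123 CPM in CA3, so that CA3 replicate 1 overlapped CA1.

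Genes of the postsynaptic density and of synaptic vesicles were described as separate lists. With all 5 libraries none of 20 postsynaptic scaffold genes passed in edgeR (8 at an unadjusted p under 0.05, 3 in DESeq2), with a median of 0.45. Without CA3 replicate 1, 10 passed as higher and 2 as lower in CA1. Shank1 was at 2288, 1606 and 1853 CPM in CA1, and at 1799 and 1006 CPM in CA3. In that fit the 2 lower genes were Homer3 and Rgs14. Homer3 was at 33.0, 33.9 and 34.1 CPM in CA1, and at 19.1 and 105 CPM in CA3 replicates 1 and 4. For Homer3 the 2 CA3 libraries lay on opposite sides of a narrow CA1 range. Of 38 synaptic vesicle and release genes none passed with all libraries in edgeR (13 at an unadjusted p under 0.05, 4 in DESeq2), and without CA3 replicate 1 it was 3 higher and 7 lower. Snap25, a core protein of vesicle fusion, was at 1157, 1403 and 1096 CPM in CA1, and at 1050 and 2388 CPM in CA3. Cplx1, the fusion regulator complexin, was at 219, 248 and 244 CPM in CA1, and at 333 and 642 CPM in CA3. Ncald, a neuronal calcium sensor, was at 45.4, 68.6 and 57.2 CPM in CA1, at 78.4 CPM in the library labelled CA3 replicate 1 and at 475 CPM in CA3 replicate 4.

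Adhesion and guidance genes held calls in both directions. Of 31 tested teneurin, latrophilin and related synaptic adhesion genes, Adgrl2 passed as higher and Tenm3 as lower in CA1. With CA3 replicate 1 left out, 10 passed as higher and 2 as lower of 32 tested. Cntnap2, a neurexin-like protein, was at 390, 288 and 345 CPM in CA1, and at 237 and 85.3 CPM in CA3. Of 29 semaphorin, plexin and neuropilin genes 1 passed, Plxnb3, with a median of -0.28. Without CA3 replicate 1, 2 passed as higher and 4 as lower in CA1, with a median of 0.03. The semaphorin gene Sema5a was at 5.51, 9.34 and 13.2 CPM in CA1, and at 20.1 and 71.0 CPM in CA3 (edgeR adjusted p = 0.11). None of 25 cadherin and protocadherin genes passed in edgeR (7 at an unadjusted p under 0.05), with a median of -0.04, and DESeq2 called 3 of 30. In the fit without CA3 replicate 1, 3 passed as higher and 1 as lower, with a median of 0.17. Cdh6 was at 31.2, 12.8 and 23.2 CPM in CA1, and at 3.92 and 3.69 CPM in CA3, with an edgeR adjusted p of 0.0952.

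Transcription factor and immediate early genes gave no call with all 5 libraries. Of 39 transcription factor genes of the pyramidal layer 10 were at an unadjusted p under 0.05, DESeq2 called 1, and 10 passed as higher in edgeR without CA3 replicate 1. Of 33 immediate early genes 14 were at an unadjusted p under 0.05, DESeq2 called 3, and 9 passed as higher in edgeR without CA3 replicate 1. The list's median log2 fold change was 0.40 with all libraries and 0.33 without CA3 replicate 4. Arc, an effector of synaptic plasticity, was at 514, 492 and 525 CPM in CA1, and at 352 and 271 CPM in CA3. Npas4, an activity-dependent transcription factor, was at 203, 358 and 510.2 CPM in CA1, and at 185 and 64.8 CPM in CA3. Both genes were lower in each CA3 library than in each CA1 library, and neither passed (edgeR adjusted p = 0.182 and 0.221).

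Kinase, hormone receptor and matrix genes held few calls. Of 25 CaM kinase and protein kinase C genes 1 passed, the inhibitor Camk2n2. Without CA3 replicate 1, 4 of 26 passed as higher and 1, again Camk2n2, as lower. Camk2a, the most abundant kinase of the excitatory synapse, was at 4433, 3524 and 3966 CPM in CA1, and at 3377 and 2721 CPM in CA3 (edgeR adjusted p = 0.445). Prkcb, a protein kinase C isoform, was at 1163, 829 and 1156 CPM in CA1, and at 743 and 235 CPM in CA3. Both kinases were lower in each CA3 library than in each CA1 library, and without CA3 replicate 1 Prkcb passed (log2 fold change 2.16, edgeR adjusted p = 0.000504) and Camk2a did not (0.0565). None of 16 steroid and nuclear receptor genes passed in edgeR (6 at an unadjusted p under 0.05, 1 in DESeq2), and 5 passed as higher in CA1 without CA3 replicate 1. Nr3c2, the mineralocorticoid receptor, was at 476, 352 and 441 CPM in CA1, and at 307 and 208 CPM in CA3. Of 20 extracellular matrix and perineuronal net genes 16 had a negative log2 fold change and the median was -0.59. None of these passed in edgeR (11 at an unadjusted p under 0.05, 2 in DESeq2), and without CA3 replicate 1, 5 passed as lower and 1 as higher of 23 tested.

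For metabolic genes the sign of the median depended on which CA3 library was used. For the 30 oxidative phosphorylation genes encoded in the nucleus, the median log2 fold change was -0.30 with all libraries, -0.55 without CA3 replicate 1 and 0.11 without CA3 replicate 4. None passed with all libraries in edgeR (1 at an unadjusted p under 0.05, none in DESeq2), and 7 passed as lower in CA1 without CA3 replicate 1. The 13 mitochondrially encoded genes summed to 53480, 53540 and 42230 CPM in CA1, and to 44150 and 68220 CPM in CA3 replicates 1 and 4. Their medians were -0.15, -0.39 and 0.19 in the same 3 fits, and 4 passed as lower without CA3 replicate 1. The one with the highest level, mt-Co1, was at 14560, 14470 and 11110 CPM in CA1, and at 12180 and 17570 CPM in CA3, so that the groups overlapped.

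Other cell types showed no call in edgeR with all 5 libraries. Of 16 astrocyte markers 2, of 20 microglia markers 1 and of 12 tested endothelial markers 2 were at an unadjusted p under 0.05. Of all 11851 tested genes 1450 were at that level. DESeq2 called none of the markers on these 3 lists. The medians were -0.19, -0.23 and -0.58. Without CA3 replicate 1, 1 astrocyte marker passed as higher and 1 as lower in CA1, no microglia or endothelial marker passed in edgeR, and the medians were -0.06, -0.31 and -0.76. Without CA3 replicate 4 no marker of these 3 lists passed in edgeR, and the medians were -0.29, 0.09 and -0.11. Astrocyte markers summed to 3874, 3051 and 2922 CPM in CA1 and to 3904 and 3506 CPM in CA3, and microglia markers to 731, 471 and 411 CPM in CA1 and to 541 and 671 CPM in CA3, so that the groups overlapped in both lists. Endothelial markers summed to 248, 189 and 145 CPM in CA1 and to 241 and 297 CPM in CA3. Slc1a2, the main glutamate transporter of astrocytes, was at 1789, 1269 and 1360 CPM in CA1, and at 1695 and 1403 CPM in CA3. Dentate granule markers summed to 333, 234 and 357 CPM in CA1 and to 262 and 194.8 CPM in CA3. None of 8 tested was called in edgeR (5 at an unadjusted p under 0.05), and DESeq2 called 2 of 17. Of the dentate markers 2 passed as higher and 1 as lower without CA3 replicate 1. Their median was -0.40 with all libraries, 0.30 without CA3 replicate 1 and -1.09 without CA3 replicate 4. The defining choroid plexus gene Ttr was at 0 in all 5 libraries. The list of 12 choroid plexus and ependymal markers still summed to 118, 98.0 and 159 CPM in CA1 and to 203 and 182.5 CPM in CA3. The 2 members of highest TPM went in opposite directions. Enpp2 was at 28.7, 26.1 and 58.3 TPM in CA1 and at 118 and 90.1 TPM in CA3. Kl was at 32.2, 23.8 and 34.4 TPM in CA1 and at 16.6 and 13.5 TPM in CA3. Clic6, Kcne2 and Otx2 were at 0, as Ttr was. Only 3 members of this list were tested in edgeR, with a median of -1.37, and 2 were at an unadjusted p under 0.05. DESeq2 called 1 of 8 members as lower in CA1. General excitatory markers summed to 11430, 10890 and 11390 CPM in CA1 and to 9533 and 9666 CPM in CA3, with none of 13 called in edgeR (5 at an unadjusted p under 0.05, 3 in DESeq2). Of the excitatory markers 3 passed as higher without CA3 replicate 1 and 1 did without CA3 replicate 4. The part of the higher oligodendrocyte and interneuron marker sums in the lower excitatory sums of CA3 was not tested.

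**Figure D4:**
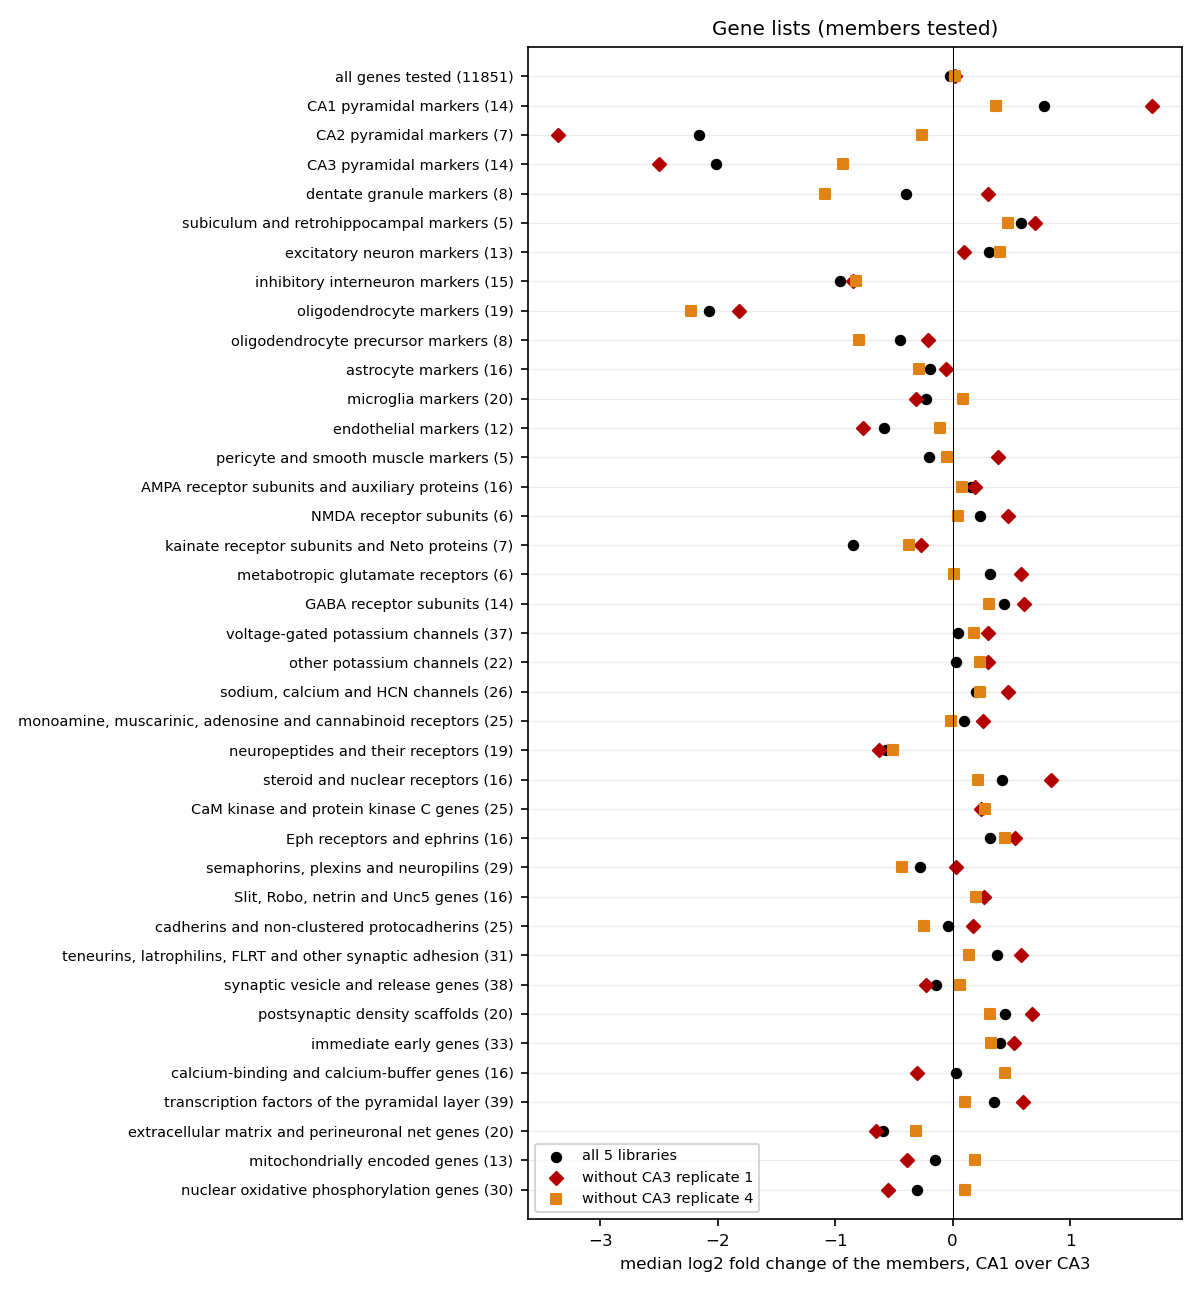
Median log2 fold change of CA1 over CA3 for each gene list with at least 5 tested members (number tested in parentheses), with all 5 libraries (black circles), without CA3 replicate 1 (red diamonds) and without CA3 replicate 4 (orange squares). The 3 points lie close together for oligodendrocyte and interneuron markers and far apart for CA1, CA2 and CA3 markers.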

How the data were processed

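RNA of the 5 control libraries was sequenced by the submitters. Per the submitters' processing notes, which give no versions, the tools were FastQC, cutadapt, kallisto and DESeq2. For build, annotation release and strand the entry is not given in the sources used here, so reads of overlapping genes on opposite strands cannot be told apart. Per the file headers, the tables per transcript contain kallisto's estimated counts and TPM. The deposited gene table holds estimated counts that lie within 0.5 of the transcript estimates summed by symbol, with 41 symbols over more than 1 gene identifier. Counts of near-identical gene copies are uncertain.

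The deposited estimated counts, already whole, were filtered with filterByExpr (minimum count 10, minimum total 15), scaled by TMM and tested with edgeR 4.0.16 in R 4.3.3 with 1 mean per group and 3 residual degrees of freedom. CPM are counts over the scaled library size. SEs were derived from the F statistic. Pairs of libraries were compared with 0.5 added to CPM. Alternatives used DESeq2 1.42.0, limma 3.58.1 on log2(TPM + 1), other scalings and filters, the 2 DG control libraries added to the fit, and each library left out. DESeq2 was run without the filterByExpr filter, so its calls in a list can include members that edgeR did not test. Where 0 passed, unadjusted counts are given. Gene coordinates came from GENCODE M21 (GRCm38) through the gene identifiers.

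The comparison and gene lists were chosen with earlier results of these data known. Named genes were called genes of at least 5 CPM, the 14 with the highest and the 14 with the lowest log2 fold change, then called list members by p and the list members of highest mean CPM. Other genes were named after their values were seen. Results of some genes that met the rule are not reported here.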

Additional observations from a re-analysis of the deposited data

How the results depend on the processing

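The counts of called genes, 9 higher and 32 lower in CA1 with edgeR, depended on the libraries and the test. Leaving out 1 library gave 0 to 696 genes higher and 0 to 328 lower, the highest counts without CA3 replicate 1 and 0 in both directions without CA1 replicate 1 (1016 at an unadjusted p under 0.05). Without the filter on low counts there were 216 higher and 196 lower, and DESeq2 gave 126 and 112. limma on log2(TPM + 1) gave 1 and 4, and the fit with the 2 DG control libraries 1 and 7. RLE and upper-quartile scaling and the filter of 5 CPM stayed within 1.5 times. The cause of these changes was not tested. All 41 called genes kept their sign in the 12 alternatives. Their groups did not overlap, so leaving out a library could hardly reverse the sign. Over the fits that left out 1 library, the log2 fold change of an uncalled gene changed sign for Homer3 (-1.63 to 0.825), Snap25 (-0.96 to 0.22), Rgs14 (-0.996 to 0.415), mt-Co1 (-0.39 to 0.14), Mpped1 (-0.20 to 1.16) and Fibcd1 (-0.594 to 1.05, at 0.00 with all 5 libraries), each between the fits without CA3 replicate 1 and without CA3 replicate 4. Slc1a2 ranged from -0.25 to 0.076, turning to 0.02 without CA1 replicate 2 and 0.076 without CA3 replicate 1. Vip ranged from -0.594 to 0.352 and was at 0.013 without the filter on low counts. No paired analysis was possible because the CA1 and CA3 control libraries share only replicate number 1. Depth limits genes near 0.451 to 1.519 CPM.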

Other observations

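The DG control libraries were not part of the comparison, and their marker levels are given as values. With the 7 control libraries scaled together, the summed CA3 markers were at 1490 CPM in DG replicate 2 and 426 CPM in DG replicate 3, beside 427 CPM in CA3 replicate 1 and 1672 CPM in CA3 replicate 4. Bok was at 210 CPM in DG replicate 2 and 13.1 CPM in DG replicate 3. Dentate granule markers summed to 1299 CPM in DG replicate 2 and 3847 CPM in DG replicate 3, beside 199 to 370 CPM in the CA1 and CA3 libraries. Oligodendrocyte markers summed to 4409 CPM and 2039 CPM in DG replicates 2 and 3.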
